A study of Ovis aries with 16 samples.

Results

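Carbonic anhydrases are the enzymes that interconvert carbon dioxide and bicarbonate, and 8 of their genes (CA2, CA3, CA4, CA5A, CA5B, CA8, CA12 and CA14) were looked up by symbol among the 28524 genes of an RNA sequencing table from sheep liver and skeletal muscle. A row was found for 7 of the 8; CA5B was not analysed here. The choice of this family rested partly on measured values, since CA12 was lower in every muscle of the sheep exposed to bisphenol A (BPA) than in every control muscle. The comparison of BPA with control muscle is therefore given for these 7 genes as a description without a test. BPA is a plasticizer with oestrogen-like activity.

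The 16 libraries came from 8 female Suffolk sheep, with a piece of the left liver lobe's tip and of vastus lateralis muscle taken from each. In the BPA group, 4 sheep were born to mothers injected under the skin with BPA in corn oil, at 0.5 mg/kg each day from day 30 to day 90 of gestation. In the control group, 4 sheep were born to mothers given corn oil alone in the same way. All offspring were sampled when about 21 months old, having fasted for 48 hours, during the late follicular phase of a prostaglandin-synchronized cycle. The 4 groups were thus BPA liver, control liver, BPA muscle and control muscle, with 4 libraries each. Exposure was prenatal only, the mothers were treated, and both tissues were sampled whole, so a difference in expression cannot be told apart from a difference in cell makeup: fewer cells of a type and less RNA per cell give the same reading.

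Carbonic anhydrases differ in where they act. CA2 is the fast cytosolic enzyme of many cells, CA3 a slow cytosolic enzyme abundant in slow muscle fibres and fat cells, and CA5A a mitochondrial enzyme of hepatocytes that feeds bicarbonate to pyruvate carboxylase and to the urea cycle. CA4, CA12 and CA14 sit on the cell surface with the active site outside. In muscle CA4 and CA14 take part there in the removal of carbon dioxide, protons and lactate. CA8 has lost catalytic activity and binds the inositol trisphosphate receptor. In human breast cancer cells CA12 is a known target of the oestrogen receptor, and the related CA9 is a known target of hypoxia-inducible factor.

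Values are normalized read counts, as deposited, in which each library's values are whole reads times a factor of that library. Recovered totals, in units of 1e6 reads (M), ranged from 4.66 to 17.92 M in BPA livers and from 4.39 to 19.28 M in control livers, and from 15.15 to 26.54 M in BPA muscles and from 16.16 to 28.54 M in control muscles. Hepatocyte markers were far higher in liver than in muscle (12 of 12 passed limma, median log2 difference 5.98), and fast and slow fibre markers far lower in liver (9 of 9 and 7 of 7, medians -15.08 and -12.92). Of all 15995 genes tested between tissues, 36.1% passed as higher in liver and 35.3% as lower. The livers were not alike. The summed count of 12 hepatocyte markers was 1566660 in BPA liver 910 and 316515 to 487672 in the other BPA livers, against 81864 in control liver 902 and 1382780 to 1565300 in the other controls. The livers under 15 M reads were BPA 918, 977 and 984 and control 902, so that depth, hepatocyte content and group moved together. In fits without BPA liver 910, every BPA liver was under 15 M reads, and among the controls only 902 was. Group cannot be told apart there from depth and hepatocyte content.

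CA12 was a muscle gene in these sheep, and it was lower in BPA muscle. It measured 183, 150, 125 and 164 in the BPA muscles of sheep 910, 918, 977 and 984, against 364, 481, 412 and 259 in the control muscles of sheep 902, 908, 924 and 928. The groups did not overlap: the highest BPA muscle, 910, lay below the lowest control, 928. These values rest on 89 to 202 reads per BPA library and 299 to 571 reads per control library.

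The group means for CA12 in muscle were 155 ± 24.3 in BPA and 379 ± 93.3 in controls (SD, n = 4 each), a ratio of 0.41. On the log2(value + 1) scale the difference, BPA minus control, was -1.26 (SE 0.22, from the spread of 4 and 4 libraries, as for every muscle difference given without a p), and it lay between -1.43 and -1.13 when each muscle was left out in turn. Over all genes tested in muscle with limma, 19 of 14706 passed an adjusted p of 0.05 (0.129%), 17 lower (0.116%) and 2 higher (0.0136%), and 7.77% had an unadjusted p under 0.05. The BPA values lay wholly below the controls for 2.48% of genes and wholly above for 2.05%. With libraries scaled to their total reads the counts were 11 lower and 3 higher. CA12 was picked from this contrast, so these shares are background to its choice and carry nothing further.

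In liver CA12 was close to the limit of counting. It measured 11.5, 8.33, 2.50 and 2.52 in BPA livers 910, 918, 977 and 984, against 17.0, 6.19, 2.13 and 8.05 in control livers 902, 908, 924 and 928. That is 2 to 15 reads per BPA library and 3 to 12 per control library, and the groups overlapped fully. The log2 difference of -0.34 gave an exact two-sided permutation p of 0.714 (n = 4 per group), and the gene was below the mean of 10 required for limma.

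**Figure D1:**
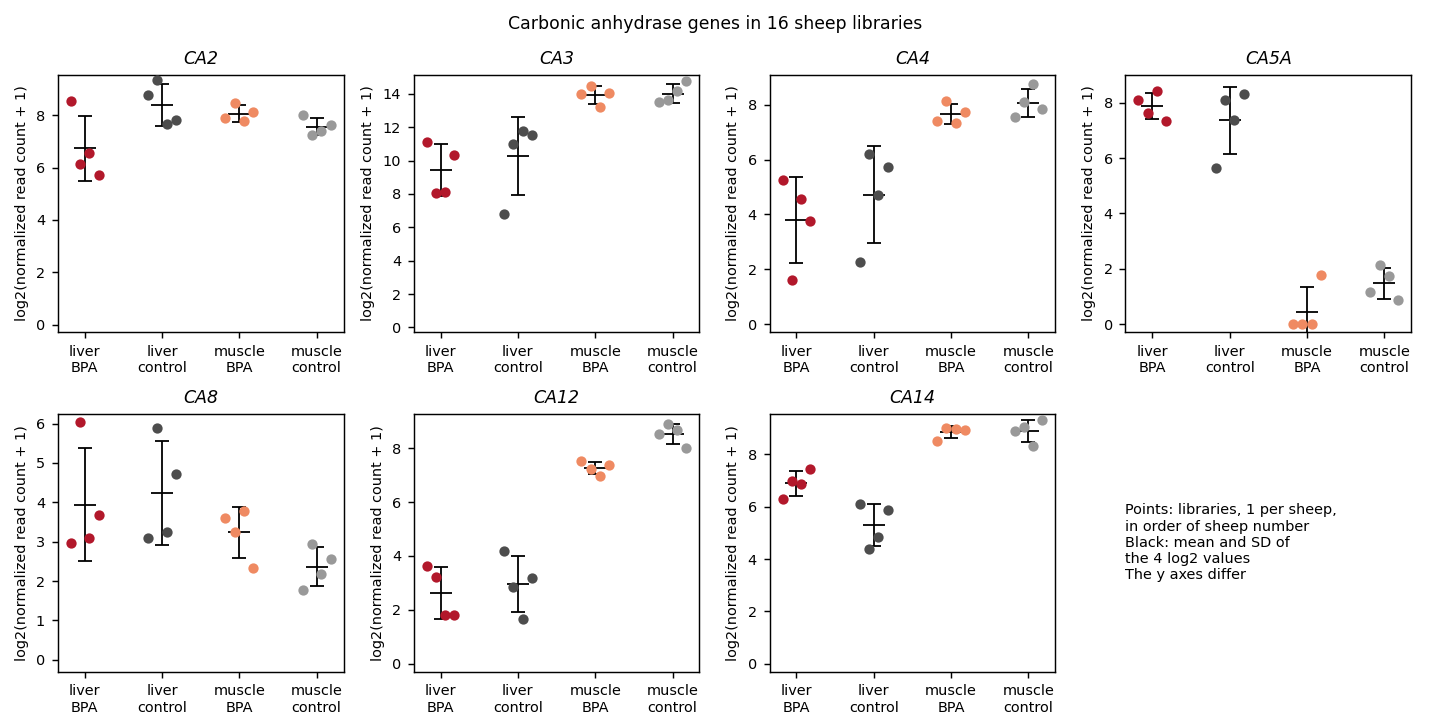
Levels of the 7 carbonic anhydrase genes as log2(normalized read count + 1) in BPA liver, control liver, BPA muscle and control muscle, with a point per library and the mean and SD of the 4 log2 values in black. CA12 in the 4 BPA muscles lies below all 4 control muscles, CA14 in the 4 BPA livers lies above all 4 control livers, and CA5A is near 0 in muscle.

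CA14, a transmembrane enzyme like CA12, stood apart by group in liver and not in muscle. It measured 77.2, 125, 116 and 173 in BPA livers 910, 918, 977 and 984, against 67.8, 19.95, 27.7 and 57.7 in control livers 902, 908, 924 and 928. Every BPA liver lay above every control liver, the nearest pair being BPA 910 and control 902. Of the 15689 genes tested in liver, 3.63% had BPA values wholly above the controls and 3.98% wholly below.

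The means of CA14 in liver were 123 ± 39.4 in BPA and 43.3 ± 23.1 in controls (SD, n = 4 each), a ratio of 2.84. The log2 difference of 1.59 (SE 0.45) did not pass limma adjusted over all genes (adjusted p = 0.256, unadjusted 0.00573), and the exact two-sided permutation p was 0.0286 (n = 4 per group), the smallest that 4 against 4 libraries allow. In liver as a whole 0 of 15689 genes passed limma (0%), with 2838 at an unadjusted p under 0.05 (18.1%), 0 by edgeR and 195 by DESeq2. Without BPA liver 910 limma called 2595 of 15741 genes (16.5%), 1155 of them higher (7.34%), and CA14 was among these (log2 difference 1.79, adjusted p = 0.0374). The BPA livers left in that fit all had under 15 M reads. Without control liver 902 its difference was 1.86 (adjusted p above the threshold, with 0% of genes called).

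CA14 was also set beside depth. Among the livers over 15 M reads BPA 910 had 77.2, against 19.95 to 57.7 in 3 controls. Among those under 15 M reads the 3 BPA livers had 116 to 173, against 67.8 in control 902. Each class holds a single library of 1 of the groups, so neither gives a test, and the part of depth was not tested. The sum of fast fibre markers, muscle being the tissue with more CA14, was 78.7 to 452 in BPA livers and 68.1 to 205 in control livers, against at least 2054930 in every muscle; its part was not tested.

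In muscle CA14 measured 369, 508, 507 and 490 in the BPA sheep 910, 918, 977 and 984, against 474, 525, 320 and 631 in the controls 902, 908, 924 and 928. The controls spanned all 4 BPA values. The log2 difference was -0.03 (SE 0.23), and 0.06 with libraries scaled to their total reads or 0.03 with sample quality weights.

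CA2, the fast cytosolic enzyme, was low in 3 of the 4 BPA livers. It measured 370, 68.7, 93.6 and 52.1 in BPA livers 910, 918, 977 and 984, against 433, 658, 205 and 224 in control livers 902, 908, 924 and 928. BPA liver 910 lay inside the range of the controls, and the other 3 lay below it. The log2 difference of -1.67 (SE 0.62) did not pass limma (adjusted p = 0.256), with an exact two-sided permutation p of 0.0857 (n = 4 per group).

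The call for CA2 in liver changed without BPA liver 910: the log2 difference was then -2.27 (adjusted p = 0.0175 by limma), in a fit where 9.15% of genes were called lower. The BPA livers left in that fit all had under 15 M reads, and of the controls only 902 did. Markers of macrophages, bile duct cells and fibroblasts had lower estimates in BPA livers, for 7 of 7, 8 of 9 and 8 of 8 genes (median log2 differences -1.68, -1.16 and -2.12). Of all genes 50.7% had lower estimates. None of these markers passed limma, as 0 of 15689 genes did. Estimates were also lower for 10 of 12 hepatocyte, 10 of 11 endothelial, 4 of 5 adipocyte and 3 of 4 Schwann cell and nerve markers. For slow fibre, fast fibre and erythroid markers they were lower for 1 of 2, 0 of 4 and 0 of 2. The sum of 7 macrophage markers was 2861 in BPA liver 910 and 614 to 1481 in the other BPA livers, against 3377 to 6735 in controls. The sum of 9 bile duct markers was 454 to 659 in BPA livers, against 649 to 13863 in controls, the top value being control 902. The sum of 8 fibroblast markers was 2616 to 5611 in BPA livers, against 5933 to 116717 in controls, again highest in 902. None of the markers in these sums was at 0 in any liver, and their part in the CA2 values was not tested.

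In muscle CA2 was somewhat higher in the BPA sheep. It measured 235, 356, 219 and 279 in BPA muscles 910, 918, 977 and 984, against 258, 150, 168 and 196 in control muscles 902, 908, 924 and 928. The BPA muscles 918 and 984 lay above the highest control, 902, and 910 and 977 lay inside the range. The log2 difference was 0.50 (SE 0.23).

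CA3, the muscle and fat cell enzyme that is coded next to CA2 in the RefSeq sheep annotation, varied widely between livers. It measured 2235, 271, 276 and 1302 in BPA livers 910, 918, 977 and 984, against 109, 2006, 3515 and 2949 in control livers 902, 908, 924 and 928. The lowest liver of all was the control 902, and the BPA livers 918 and 977 were next. The log2 difference of -0.85 (SE 1.13) did not pass limma (adjusted p = 0.687), and without control 902 it was -2.01, also not called.

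In muscle CA3 measured 16465, 22726, 9591 and 16918 in BPA sheep 910, 918, 977 and 984, against 11488, 12560, 18397 and 27780 in controls 902, 908, 924 and 928. The lowest muscle was BPA 977 and the highest control 928, and the groups overlapped (log2 difference -0.07, SE 0.39, and 0.02 with libraries scaled to their total reads). The sum of 7 slow fibre markers was likewise lowest in BPA 977 (110459), and next lowest in control 902 (119000). It was highest in BPA 918 (192440) and then in control 928 (177083). The summed slow fibre markers ranged from 110459 to 192440 in BPA muscles and from 119000 to 177083 in controls.

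CA4, a lipid-anchored enzyme of capillary endothelium and muscle membranes, showed the same spread between livers. It measured 37.4, 2.08, 22.5 and 12.6 in BPA livers 910, 918, 977 and 984, against 3.77, 72.2, 24.9 and 52.3 in control livers 902, 908, 924 and 928. BPA 918 and control 902 rest on 1 and 2 reads, the others on 15 to 105. The log2 difference was -0.92 (SE 0.999, limma adjusted p = 0.617); without control 902 it was -1.74 and without BPA 918 it was -0.19.

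Endothelial markers moved with it in part. Their sum over 11 genes was 5823 to 8530 in BPA livers and 5838 to 11035 in control livers, lowest in BPA 918 and control 902. The median deviation of the same markers from their liver means was lowest in BPA 918 (-0.78 log2 units), but in control 902 it was -0.03, above BPA 977 (-0.46) and BPA 984 (-0.41), while CA4 was lower in 902 than in either. Of these markers 10 of 11 had lower estimates in BPA livers (median log2 difference -0.70, against -0.01 for all genes, of which 50.7% had lower estimates) and 0 passed limma, and none was at 0 in any liver; their part was not tested. In muscle CA4 measured 170, 282, 160 and 210 in BPA sheep 910, 918, 977 and 984, against 189, 272, 427 and 227 in controls 902, 908, 924 and 928. The groups overlapped there, with BPA 910 and 977 below every control and BPA 918 above 3 of them (log2 difference -0.40, SE 0.31).

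CA5A, the mitochondrial enzyme, was a liver gene. It measured 276, 196, 341 and 162 in BPA livers 910, 918, 977 and 984, against 49.0, 273, 165 and 316 in control livers 902, 908, 924 and 928. The groups overlapped, and the control 902, with the lowest hepatocyte markers, was the lowest liver. The log2 difference of 0.52 (SE 0.56) did not pass limma (adjusted p = 0.612), and it was -0.05 without control 902. In muscle CA5A had 0, 0, 0 and 3 reads in BPA sheep 910, 918, 977 and 984, and 1, 4, 2 and 1 reads in controls 902, 908, 924 and 928. A count of 0 allows up to 3 reads, here a normalized count of 2.30 to 4.21 in the 3 BPA muscles at 0, so the groups could not be told apart.

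CA8, which has no enzyme activity, was low in both tissues and uneven between animals. It measured 6.88, 64.5, 7.49 and 11.8 in BPA livers 910, 918, 977 and 984, against 7.54, 58.5, 8.53 and 25.5 in control livers 902, 908, 924 and 928. A single liver in each group, BPA 918 and control 908, was far above the rest. The log2 difference of -0.30 (SE 0.86) did not pass limma (adjusted p = 0.861) and turned positive without control 908 (0.25) or without BPA 910 (0.02). In muscle CA8 had 10, 11, 9 and 5 reads in BPA sheep and 2, 8, 3 and 6 in controls, in order of sheep number, with means of 9.07 ± 3.77 in BPA and 4.40 ± 1.86 in controls (SD, n = 4 each).

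**Figure D2:**
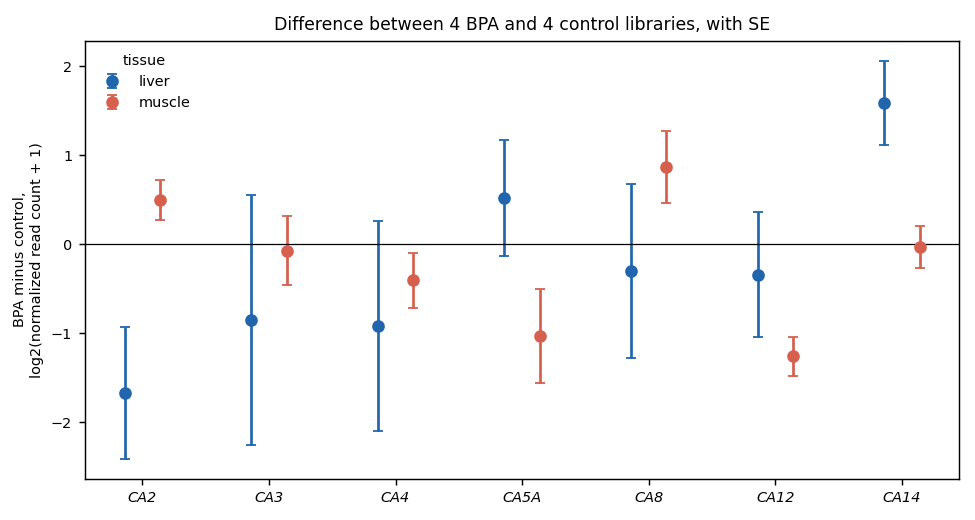
Difference of BPA minus control in log2(normalized read count + 1) for each carbonic anhydrase gene, in liver (blue) and muscle (red), with bars for the SE from the spread of 4 and 4 libraries, which in liver is wider than the moderated SE of limma in the text. CA14 is highest in liver (1.59) and near 0 in muscle (-0.03), while CA12 in muscle (-1.26) has a narrow SE and CA3 and CA4 in liver have wide ones.

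**Figure D3:**
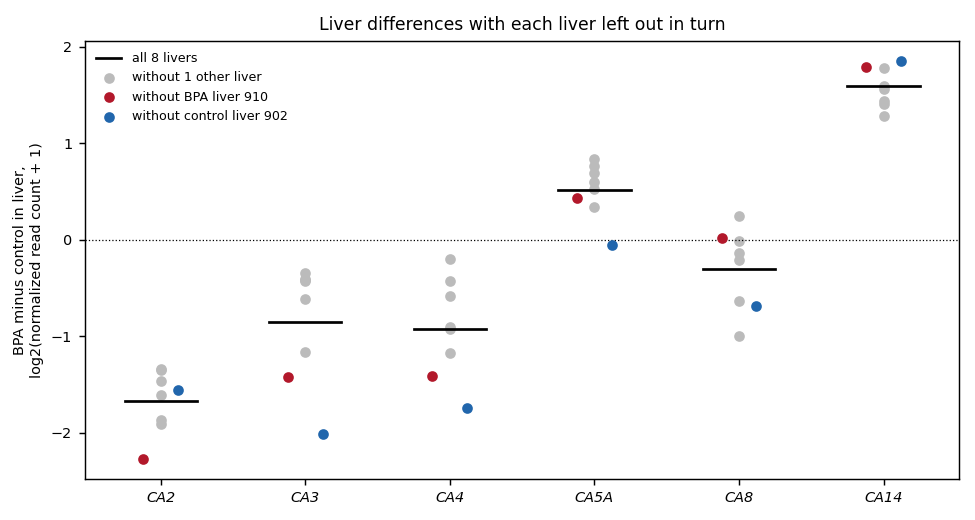
Difference of BPA minus control in liver, on the log2(normalized read count + 1) scale, for the 6 carbonic anhydrase genes tested, with all 8 livers (black line) and with each liver left out in turn (points; red without BPA 910, blue without control 902). CA14 stays between 1.29 and 1.86 and CA2 between -2.27 and -1.33, whereas CA5A and CA8 cross 0.

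Between tissues, 6 of the 7 genes differed. The mean required for limma was taken here over the libraries of both tissues together. CA12 lay below that threshold in liver (mean 7.27), and CA5A and CA8 lay below it in muscle (means 1.27 and 6.73). These genes were thus tested because of their values in the higher tissue, and their p-values carry that selection. The muscle values of CA12 had also chosen it, so its p-value between tissues is given as a description. All 7 were tested over the 16 libraries, as the mean of the liver minus muscle difference in BPA and in control sheep, in a fit where 71.4% of 15995 genes passed (36.1% higher in liver, 35.3% lower). Scaling to total reads moved the median of all genes by about 1 log2 unit (0.06 with the deposited scaling, 1.03 with totals) and turned the split of 5780 higher and 5640 lower genes into 9924 and 2750. CA5A (log2 difference 6.66, SE 0.40, limma adjusted p = 2.97e-10) and CA8 (1.29, SE 0.50, adjusted p = 0.0294) were higher in liver.

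The genes lower in liver than in muscle were CA12 (log2 difference -5.12, SE 0.35, limma adjusted p = 1.47e-09), CA3 (-4.13, SE 0.64, adjusted p = 2.68e-05), CA4 (-3.60, SE 0.54, adjusted p = 1.98e-05) and CA14 (-2.78, SE 0.25, adjusted p = 4.73e-08). For CA5A and CA12 the size depends on the pseudocount, since 1 tissue is near 0: with pseudocounts of 0.5 and 5, CA5A was at 7.21 and 5.03 and CA12 at -5.24 and -4.42. The directions of these 6 held with TMM and with total read scaling. The CA8 call is fragile, as it was lost on leaving out BPA liver 918 (adjusted p = 0.0586), control liver 908 (0.0681), control liver 928 (0.0546), control muscle 902 (0.0563) or BPA muscle 984 (0.0630).

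CA2 did not pass between tissues (log2 difference -0.25, SE 0.35, limma adjusted p = 0.539). Within single sheep, its liver minus muscle difference was 0.65, -2.36, -1.22 and -2.40 in BPA sheep 910, 918, 977 and 984, against 0.75, 2.13, 0.29 and 0.19 in controls 902, 908, 924 and 928. Liver was thus the higher tissue in 1 of 4 BPA sheep and in 4 of 4 controls, and in control sheep alone the difference was 0.84 (adjusted p = 0.0922). For CA14 the same difference was -2.24, -2.02, -2.12 and -1.50 in BPA sheep, against -2.79, -4.65, -3.48 and -3.43 in controls, in order of sheep number. The groups did not overlap, and for 3.13% of 13677 genes all BPA sheep likewise lay above all controls in this measure.

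The BPA effect in liver minus that in muscle was tested by an interaction contrast for the 4 genes with a mean of at least 10 in both tissues. CA14 (1.62, SE 0.50) and CA2 (-2.17, SE 0.70) had limma adjusted p of 0.195 and 0.198, and CA3 (-0.78, SE 1.29) and CA4 (-0.51, SE 1.09) 0.742 and 0.802. Of 13677 genes 0 passed (0%), with 2661 at an unadjusted p under 0.05 (19.5%), 0 by edgeR and 148 by DESeq2. Without BPA liver 910 CA2 (-2.77, limma adjusted p = 0.00152) and CA14 (1.82, adjusted p = 0.0159) passed. That fit called 3550 genes in all, where 13677 were tested with all 16 libraries, so passing was not particular to CA2 and CA14. CA12 was not tested here, since its muscle values chose it and its liver mean was under 10.

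**Figure D4:**
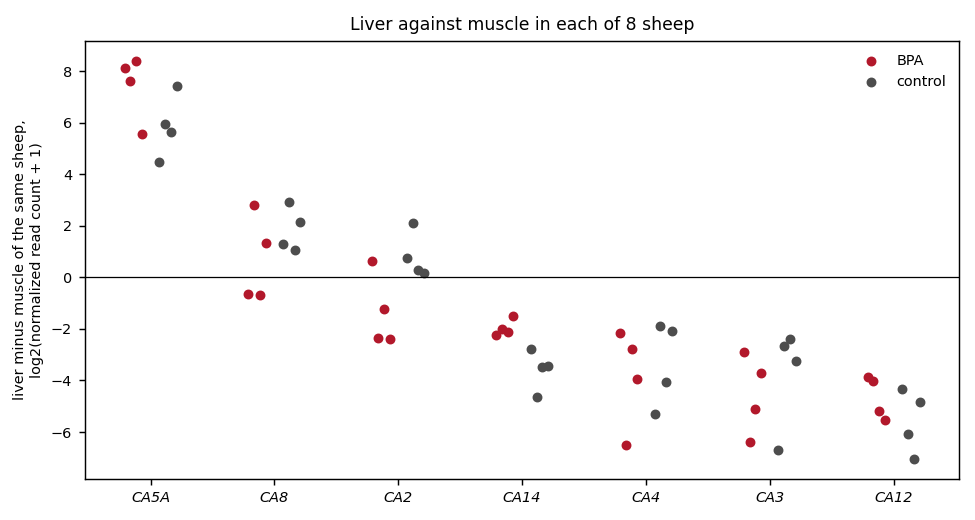
Liver minus muscle of the same sheep in log2(normalized read count + 1), with a point per sheep, BPA in red and control in grey. CA5A lies above 0 in all 8 sheep and CA14, CA4, CA3 and CA12 below 0 in all 8, while CA2 is below 0 in 3 BPA sheep (-2.40 to -1.22) and above 0 in all 4 controls (0.19 to 2.13).

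The genes whose pattern over the 8 muscles was nearest to that of CA12 were DIAPH1, ASTN1, FGG, MTTP and FGA. Nearness was the root mean square difference of log2(value + 1) after each gene's mean was subtracted, among 12411 genes with a symbol, and these 5 lay at 0.25, 0.25, 0.25, 0.29 and 0.29 log2 units, against 0.69 for a gene that does not vary. DIAPH1 encodes a formin that builds actin filaments, ASTN1 a neuronal adhesion protein, FGG and FGA the gamma and alpha chains of fibrinogen, and MTTP the lipid transfer protein of lipoprotein assembly. Being near CA12, they share its separation of the groups by construction.

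The values of the neighbours in muscle show the same order of groups. FGG measured 451 to 652 in BPA muscles and 1179 to 1391 in controls, FGA 640 to 872 and 1577 to 1777, and MTTP 8.11 to 15.6 and 17.2 to 24.6 in the same order. DIAPH1 was at 1093 to 1570 in BPA muscles and 1670 to 2890 in controls, and ASTN1 at 6.91 to 10.0 and 10.6 to 35.4. FGG, FGA and MTTP are liver genes here (log2 differences, liver minus muscle, of 5.22, 5.85 and 5.78), whereas CA12 is not.

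The sum of hepatocyte markers was lower in BPA muscles, as CA12 was, but the order of sheep within the groups differed. The sum over 12 genes was 11039, 5442, 7623 and 7549 in BPA muscles 910, 918, 977 and 984, against 16800, 12103, 11187 and 11740 in control muscles 902, 908, 924 and 928. It was highest in control 902 and lowest in BPA 918, whereas CA12 was highest in control 908 (481) and lowest in BPA 977 (125). All 12 had lower estimates in BPA muscle (median log2 difference -0.57, against 0.00 for all genes, of which 50.5% had lower estimates). FGB and FGA, the latter also a neighbour picked by likeness to CA12, passed limma as lower, beside 0.116% of all genes. None of the 12 was at 0 in any muscle. In liver, where these sums were at least 81864, CA12 was at most 17.0; of all genes tested between tissues, 21.2% were lower in every liver than in every muscle. The part of hepatocyte RNA in the muscle values of CA12 was not tested. The other lists, erythroid markers apart, had medians nearer 0 in muscle: slow fibre markers had a median log2 difference of -0.01, fast fibre -0.02, endothelial 0.11, adipocyte 0.11, macrophage 0.16, bile duct -0.16, Schwann cell and nerve -0.17 and fibroblast 0.19, and 0 members of these passed limma. Erythroid markers had 2 tested members (median 1.76, 0 passed).

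**Figure D5:**
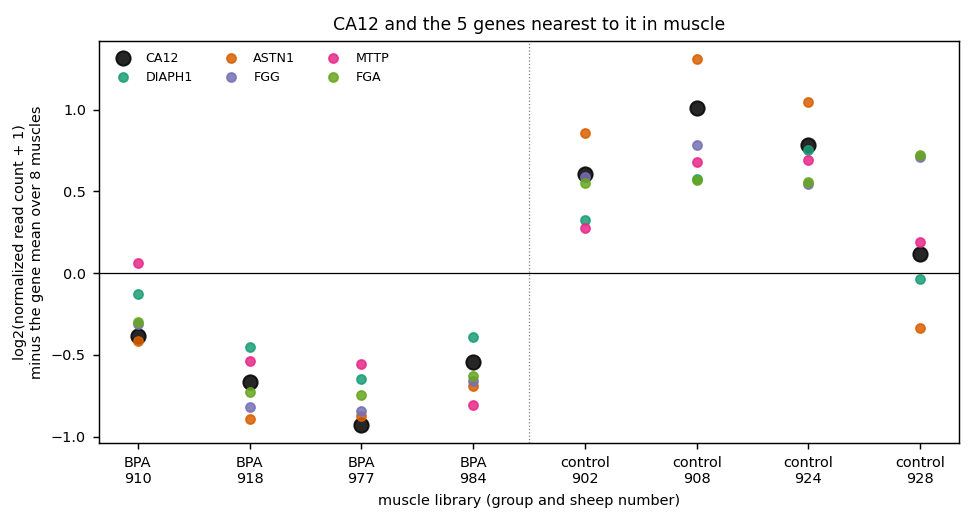
CA12 (black) and the 5 genes nearest to it over the 8 muscle libraries, each as log2(normalized read count + 1) minus its own mean over those libraries, by sheep. CA12 is below its mean in all 4 BPA muscles and above it in all 4 controls, with control 928 the closest to the mean.

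For the other genes, likeness was measured over all 16 libraries and so follows the difference between tissues. CA5A lay nearest to TAT, IYD and A1CF (0.52 to 0.60 log2 units), which encode tyrosine aminotransferase, an iodotyrosine deiodinase and an RNA-binding partner of apolipoprotein B editing. CA14 lay nearest to CCDC13, LIMCH1 and SVIL (0.45 to 0.53), and CA4 to MTLN, NDUFS7 and SYNGR2 (0.53 to 0.58). CA3 lay nearest to NDUFS7, CHCHD10 and SFRP5 (0.74 to 0.80), so that the complex I subunit NDUFS7 stood near both CA3 and CA4. CA2 lay nearest to CXCR4, IDS and FKBP1A (0.42 to 0.47). CA8 had no close match, the nearest being DNAJA1 at 0.67, against 1.17 for a gene that does not vary.

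Of the rest of the family, CA9 and CA11 were measured well enough to test. CA9, the hypoxia-induced surface enzyme, averaged 47.2 ± 9.03 in BPA livers and 37.0 ± 8.40 in control livers, and 81.9 ± 19.8 in BPA muscles and 65.2 ± 14.6 in control muscles (SD, n = 4 each). CA11, an inactive relative, averaged 13.8 ± 5.92 in BPA livers and 15.3 ± 5.28 in control livers, and 55.3 ± 7.67 in BPA muscles and 42.3 ± 5.49 in control muscles. Neither passed limma for BPA in liver (adjusted p = 0.566 for CA9 and 0.878 for CA11) or muscle (0.759 and 0.649), and both were lower in liver than in muscle (log2 differences -0.79 and -1.75, adjusted p = 0.00108 and 1.06e-05). With libraries scaled to total reads CA9 was at 0.13 (adjusted p = 0.526) and CA11 at -0.86 (adjusted p = 0.00318). CA1, CA6, CA7, CA10 and CA13 had at most 7 reads in any group of 4 libraries, and CA15 was not analysed here.

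Genes that handle the substrates of carbonic anhydrases did not pass for BPA in either tissue. In liver 0 of 15689 genes passed limma, so the counts of 0 there say nothing about these lists. In muscle 0.129% of genes passed, so counts of 0 say as little about lists this short. Of the bicarbonate and chloride exchangers and cotransporters, 0 of 15 passed limma in liver and 0 of 13 in muscle. At an unadjusted p under 0.05 were 1 and 1, beside 18.1% and 7.77% of all genes. The smallest p in liver was that of the anion exchanger SLC26A7, at 38.6 to 119 in BPA livers and 23.5 to 30.1 in controls (log2 difference 1.09, SE 0.41, adjusted p = 0.258). In muscle it was that of the exchanger SLC4A3, at 18.2 to 52.2 in BPA and 6.74 to 30.4 in controls (1.07, SE 0.47, adjusted p = 0.611). Median log2 differences of the list were 0.12 in liver and 0.08 in muscle, against -0.01 and 0.00 for all genes.

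Of the proton exchangers and lactate transporters 0 of 13 passed in liver and 0 of 14 in muscle. At an unadjusted p under 0.05 were 3 and 0, beside 18.1% and 7.77% of all genes. CHP1, a partner of the sodium-proton exchangers, was at 134 to 520 in BPA livers and 498 to 661 in controls (log2 difference -1.30, SE 0.40, adjusted p = 0.256). BSG, the chaperone of the lactate transporters, was at 673 to 3425 and 1756 to 4640 (-1.60, SE 0.56, adjusted p = 0.256). The list medians were -0.41 in liver and 0.08 in muscle. Without BPA liver 910 both passed in liver (CHP1 -1.68, adjusted p = 0.00917; BSG -2.15, adjusted p = 0.0119), the only 2 of the list to do so, a share near the 16.5% of all genes called in that fit.

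The list of enzymes that consume bicarbonate held 10 genes, with HLCS among them, which attaches biotin to carboxylases and does not itself use bicarbonate. In each tissue 0 of 10 passed limma, with medians of 0.34 in liver and 0.00 in muscle. At an unadjusted p under 0.05 were 2 in liver and 1 in muscle, beside 18.1% and 7.77% of all genes. MCCC1, a carboxylase of leucine breakdown, was at 413 to 920 in BPA livers and 241 to 414 in controls (log2 difference 0.92, SE 0.32, adjusted p = 0.256). CPS1, the first enzyme of the urea cycle, was at 168 to 378 in BPA muscles and 378 to 575 in controls (-0.77, SE 0.22, adjusted p = 0.341). Both edgeR and DESeq2 called 0 members of these 3 lists in either tissue. They called few or 0 of all genes there, so these counts say nothing about the lists. Without BPA liver 910, 2 of the bicarbonate-using enzymes passed limma as higher in liver (7.34% of all genes were higher in that fit), MCCC1 (1.09, adjusted p = 0.0445) and the pyrimidine synthesis enzyme CAD (1.53, adjusted p = 0.0216).

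The regulators known for CA9 and CA12 elsewhere were examined as lists. Of all genes 0% passed limma in liver and 0.129% in muscle, with 18.1% and 7.77% at an unadjusted p under 0.05. Counts of 0 passing thus say nothing about a list this short in either tissue. Of 23 hypoxia-responsive genes 0 passed in liver (7 at an unadjusted p under 0.05, median log2 difference -0.49) and 0 in muscle (1, median 0.12). EGLN3, an oxygen-sensing hydroxylase, was at 4637 to 6087 in BPA muscles and 3745 to 4161 in controls (log2 difference 0.35, SE 0.10, adjusted p = 0.323), and BNIP3, a mitophagy receptor, at 212 to 577 in BPA livers and 607 to 674 in controls (-0.89, SE 0.32, adjusted p = 0.256). Of genes responsive to oestrogen in human breast cells, 0 of 17 passed in liver (4 unadjusted, median -0.57) and 0 of 17 in muscle (3 unadjusted, median -0.11). NRIP1, a nuclear receptor corepressor, was at 1085 to 1172 in BPA muscles and 1269 to 1849 in controls (-0.41, SE 0.11, adjusted p = 0.277), and the lysosomal protease CTSD at 1033 to 4930 in BPA livers and 4539 to 7956 in controls (-1.63, SE 0.48, adjusted p = 0.256). By edgeR and DESeq2 0 members of both lists were called in either tissue, where few or 0 of all genes were called. Without BPA liver 910 limma called 4 of 23 and 4 of 17 members in liver, where 16.5% of all genes were called (7.34% higher, 9.15% lower), so the hypoxia count lay near the background. The oestrogen count, 4 of 17, was not tested against that share. In that fit group cannot be told apart from depth and hepatocyte content. The hypoxia-responsive ones were VEGFA (1.38) and KDM3A (1.39), both higher, and BNIP3 (-1.13) and DDIT4 (-1.35), both lower. The oestrogen-responsive ones were ESR1 (-1.08), CTSD (-2.05), KRT8 (-1.88) and CCND1 (-1.50), all lower. Some of these genes are named only because they passed in that fit, and their values had been seen.

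Between tissues, genes handling the substrates differed in both directions, beside 36.1% of all genes higher and 35.3% lower in liver. Among bicarbonate transporters 5 of 15 were higher and 4 lower in liver, with CFTR (log2 difference 5.29) and the sulphate exchanger SLC26A1 (5.82) higher and SLC26A6 (-1.81) lower. The shares of called transporters in each direction thus lay near or below those of all genes. Among proton and lactate transporters 4 of 14 were higher and 5 lower, with the lactate exporter SLC16A3 (-3.61) and the exchanger SLC9A2 (-6.04) lower and SLC16A7 (2.46) higher. In the list of bicarbonate-using enzymes and HLCS 7 of 10 were higher, among them CPS1 (6.07) and pyruvate carboxylase PC (5.63), both users of bicarbonate in mitochondria, PCCA (2.84) and MCCC1 (1.97), and 2 were lower, ACACB (-2.21) and the biotin ligase HLCS (-0.96). These passed limma with adjusted p between 1.97e-12 and 0.000139. Scaling to total reads gave 9 higher and 1 lower of 16 bicarbonate transporters, 7 higher and 4 lower of 14 proton and lactate transporters, and 8 higher and 1 lower of 10 enzymes, and HLCS was then at -0.03 and not called. The shares of all genes given here do not apply to these counts. With total reads the median of all genes was 1.03, and far more genes were called higher in liver than lower.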

How the data were processed

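Liver and muscle of 8 sheep gave 16 libraries. Per the labels' protocols, a low-input kit followed the removal of ribosomal RNA. Tools named by the submitters' processing notes were DESeq2 1.24.0, Trimmomatic and FastQC; for aligner, counter, annotation, build and strandedness the sources used here give nothing, so reads shared by related genes stay uncertain. The deposited values are a normalized signal, described by the authors' table as normalized counts; in the values each library is read counts times 1 factor. Dividing by each column's step gave whole reads for at least 99.9965% of values (tolerance 0.1 read).

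Each tissue was tested with limma 3.58.1 (R 4.3.3, eBayes with trend) on log2(value + 1), requiring a mean of 10 or more, with Benjamini-Hochberg adjustment over all genes tested and a threshold of 0.05; this scale understates changes of low genes. A 4-group fit gave the difference between tissues and the interaction. For the difference between tissues the mean was taken over all libraries, and for the interaction it was required in each tissue. Recovered reads were also tested with edgeR 4.0.16 (19 genes called in muscle and 0 in liver) and DESeq2 1.42.0. The fit was tested on simulated data.

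The genes, lists and tests were chosen with earlier results of these data known. Named genes were the family, its nearest neighbours by pattern, and from each list up to 3 genes per direction past the threshold, otherwise those of smallest p. Sheep numbers in the labels mark the same animal in both tissues; the correlation across genes between liver and muscle of 1 animal, after subtracting group means, was -0.10 to 0.12, so the pairing rests on the labels. Within a tissue each library came from a separate animal. Permutation tests used all 70 assignments. Of the row names, 22708 of 28524 were found in the RefSeq table of ARS-UI_Ramb_v3.0, used for names and gene order. Floors of 3 reads cover counting error only.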

Additional observations from a re-analysis of the deposited data

Results flagged for a closer look

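Sets of 4 libraries numbered 28 (7 genes in 4 groups). In 4 of them a library's gap to the nearest other exceeded Dixon's 95% critical share of the range. The gaps were taken on normalized counts, not on log2 values. The usual chance rate of about 1 set in 20 is for normally distributed values, so the 4 sets cannot be weighed against it. CA2 in BPA liver 910 was at 369.9, with 52.1 to 93.6 in the other BPA livers. CA8 in BPA liver 918 was at 64.54, with 6.88 to 11.8 in the others. CA5A in BPA muscle 984 was at 2.432, that is 3 reads, with 0 in the others. CA14 in BPA muscle 910 was at 368.8, with 490 to 508 in the others. BPA muscle 910 also had the highest adipocyte marker sum of the muscles (3659, with 634 to 1816 in the other BPA muscles and 1020 to 1700 in controls), and its part in the CA14 value was not tested.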

How the results depend on the processing

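Other pseudocounts, filters, TMM or total read scaling and edgeR left each total of called genes within 1.5 times, but total read scaling moved the split between tissues to 9924 higher and 2750 lower (from 5780 and 5640) and the lower genes in muscle to 11 (from 17). DESeq2 called 195 genes in liver, 131 in muscle and 148 for the interaction, and sample quality weights 9588, 377 and 8245, against 0, 19 and 0 with limma; the cause was not tested. Leaving out each library gave 0 to 2595 genes in liver, 11 to 31 in muscle (31 without BPA 910, 11 without BPA 984), 10961 to 11945 between tissues and 0 to 3550 for the interaction. With the animal as a replicate block, 11374 genes differed between tissues and 0 for the interaction, and no carbonic anhydrase call changed. CA2 between tissues turned to 0.69 with total read scaling, 0.0849 with edgeR, 0.0342 with DESeq2 and 0.84 in control sheep alone. Leaving out libraries moved CA5A in liver between -0.0526 and 0.84, CA8 in liver between -0.997 and 0.25 and the CA4 interaction between -1.34 and 0.21. With quality weights CA2 (-1.76), CA3 (-2.55) and CA14 (1.99) passed in liver, CA2 (-0.61) between tissues, and CA2 (-2.30), CA3 (-2.57) and CA14 (1.94) for the interaction. With 4 libraries per group and livers of 4.39 to 19.28 M reads, low genes such as CA12 and CA8 in liver are limited by counting.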
